A study of Mus musculus with 35 samples.

Results

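The genes described here are 9 mouse genes that mark macrophages, namely Csf1r, C1qa, C1qb, C1qc, Mpeg1, Cd68, Lyz2, Cx3cr1 and Mertk, taken by name from a table of read counts for 41096 genes in 35 bulk RNA-seq libraries of sorted thymocytes. The table held 8 of the 9 under their names, and Lyz2 was not analysed here. The libraries fall into 7 groups of 5. KO DP came from 10-week Mettl3flox/flox; Cd4Cre mice, in which both alleles of Mettl3, the catalytic subunit of the RNA N6-adenosine methyltransferase, are floxed. WT DP and WT DN came from 10-week Mettl3flox/wt; Cd4Cre mice, so these controls carry the Cre transgene and 1 floxed allele. Aged DP and aged DN are wild type at 60 weeks of age, young DP and young DN wild type at 10 weeks. DP cells carry both CD4 and CD8 on the surface and DN cells carry neither. Cd4Cre is driven by regulatory sequence of Cd4, which thymocytes switch on as they become DP. DN cells of the KO genotype were not analysed here. Nothing in the labels ties replicates to separate animals, so the p-values cover the spread among these libraries, which may be technical. Nor is it stated whether other lineages were gated out in the sort.

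Macrophages of the thymus engulf the many thymocytes that die during selection, a process called efferocytosis. CSF1R is the receptor for CSF1 and IL-34, on which most tissue macrophages depend. C1QA, C1QB and C1QC are the 3 chains of C1q, which opens the classical complement pathway and also tags dying cells for uptake. MERTK is a receptor tyrosine kinase that recognises dying cells through the bridging proteins GAS6 and protein S. MPEG1, or perforin-2, is a pore-forming protein of phagocytes, CD68 a glycoprotein of late endosomes and lysosomes, and CX3CR1 the receptor for the chemokine CX3CL1. None of these genes is strictly private to macrophages: Mpeg1 is also transcribed in B cells and dendritic cells, Cx3cr1 in NK cells and monocytes, and Cd68 at low levels in many cell types.

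The C1q genes lie side by side, in the order C1qb, C1qc and C1qa, within 20.8 kb of the minus strand of chromosome 4 (144448989 to 144469777 in the coordinates of the strain annotation that the table uses). The others are scattered over the genome. RefSeq promoter windows of GRCm38.p6, from 250 bases before to 50 after the gene's start, were at hand for 6 members. Each was searched on both strands for GAGGAA, the core recognised by PU.1 (encoded by Spi1), the factor that directs myeloid transcription, and for TGCTGA, a part of the site bound by MAF factors. The windows of neighbouring C1qb and C1qc, which were both far above their group in aged DN 4 and aged DP 5, and that of Mpeg1, which was highest in aged DN 5 where C1q was low, are printed here in lower case with matches on either strand in capitals.
C1qb promoter, chr4:136886151-136886450, minus strand: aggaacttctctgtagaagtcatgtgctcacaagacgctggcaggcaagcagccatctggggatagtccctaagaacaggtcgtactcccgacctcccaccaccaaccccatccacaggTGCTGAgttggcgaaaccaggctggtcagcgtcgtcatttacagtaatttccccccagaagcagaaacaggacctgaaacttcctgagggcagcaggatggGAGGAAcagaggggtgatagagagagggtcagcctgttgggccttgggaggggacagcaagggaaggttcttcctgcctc
C1qc promoter, chr4:136892865-136893164, minus strand: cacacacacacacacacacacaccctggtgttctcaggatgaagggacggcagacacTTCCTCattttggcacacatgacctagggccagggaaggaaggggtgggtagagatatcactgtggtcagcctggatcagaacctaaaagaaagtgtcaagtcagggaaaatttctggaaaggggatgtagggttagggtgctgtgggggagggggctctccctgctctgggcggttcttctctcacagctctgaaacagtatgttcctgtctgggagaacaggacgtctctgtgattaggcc
Mpeg1 promoter, chr19:12460520-12460819, plus strand: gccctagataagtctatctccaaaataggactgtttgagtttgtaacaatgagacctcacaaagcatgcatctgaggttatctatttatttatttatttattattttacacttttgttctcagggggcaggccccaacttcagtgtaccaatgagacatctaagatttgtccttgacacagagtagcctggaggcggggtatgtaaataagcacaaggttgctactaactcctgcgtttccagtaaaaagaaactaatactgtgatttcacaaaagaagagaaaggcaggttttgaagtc
The C1qb window held 1 PU.1 core and 1 MAF site part, which do not overlap, and the C1qc window held 1 PU.1 core, read on the other strand as TTCCTC. The Cd68 window held 2 PU.1 cores. The windows of Mpeg1, Cx3cr1 and Mertk held neither run of letters. Among all 32851 windows, 28.3% held the PU.1 core and 19.5% the MAF site part, so a match is common and is given only as a description.

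The libraries held 12391908 to 18820157 counts each. KO DP 2 stood apart, where 12306 genes had a count, while 16042 to 19656 did in the rest of the KO DP group, and KO results below are given with and without it where it moved a call. Mettl3 itself ran from 47.8 to 60.6 CPM (counts scaled to a common library total by TMM) in KO DP libraries and from 44.5 to 54.1 CPM in WT DP libraries, and a count over the whole gene does not test the deleted part. The members were scarce in cells sorted as thymocytes. Over all 35 libraries together Mpeg1 had 10776 counts, Cd68 5108, Csf1r 2820, Cx3cr1 1317, C1qb 922, C1qa 905, C1qc 794 and Mertk 112. In WT DP and young DP libraries that meant 0 to 17 counts per library for Csf1r, Cx3cr1, Mertk and the C1q genes. Bulk values cannot tell fewer cells of a type from less RNA per cell. Per kilobase of the gene length in the table, the mean level in WT DP libraries was 9.09 CPM per kb for Cd68, 1.08 for Mpeg1, 0.428 for C1qb, 0.379 for C1qa, 0.189 for C1qc, 0.164 for Csf1r and 0.0596 for Cx3cr1. Cd68 was thus the highest of the set by this measure, while the genes most tied to macrophages were near the limit of detection. DP thymocyte markers (Cd4, Cd8a, Cd8b1, Rag1 and Rag2) summed to 7437 to 10686 CPM in KO DP, to 11364 to 13651 CPM in WT DP, to 12012 to 16944 CPM in the other DP libraries and to 187.6 to 1995 CPM in DN libraries.

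**Figure D1:**
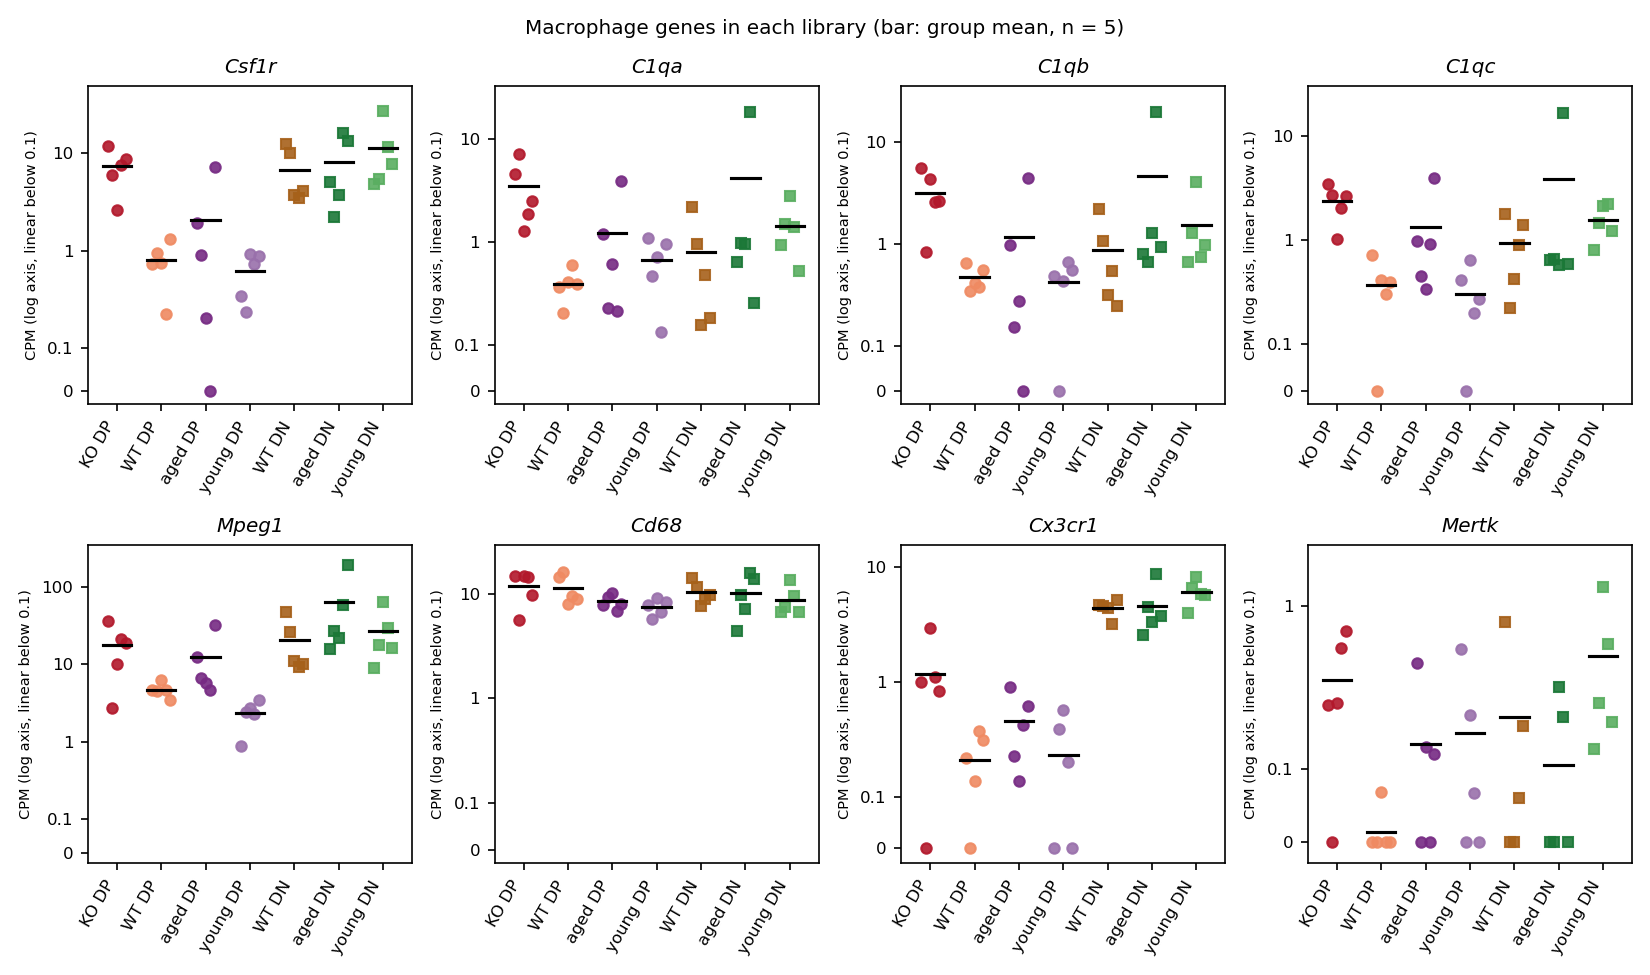
Levels of the 8 macrophage genes in CPM, 1 point per library and a bar at the mean of each group of 5, on a log axis that is linear below 0.1. The 5 KO DP libraries lie above all 5 WT DP libraries for Csf1r and the 3 C1q genes, and how many of all genes do so was not counted. Single aged libraries lie far above their group, and Cd68 is close to level across groups.

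Csf1r, C1qa and C1qb were called higher in KO DP cells than in WT DP cells. Csf1r had 11.97, 5.97, 2.61, 7.67 and 8.70 CPM in KO DP libraries 1 to 5, against 0.724, 0.957, 0.752, 0.226 and 1.34 CPM in WT DP libraries. Every KO DP library lay above every WT DP library. In counts this was 41 to 193 per KO DP library and 3 to 17 per WT DP library. The log2 fold change was 3.21 ± 0.49 (SE, n = 5 each; adjusted p = 0.00424 by edgeR's quasi-likelihood test). Csf1r (chromosome 18) shares its locus with Hmgxb3 on the opposite strand, a gene with many more counts, and no source used here says whether counts were kept to 1 strand. Hmgxb3 itself averaged 44.0 ± 10.5 CPM in KO DP, against 55.8 ± 6.79 CPM in WT DP (SD, n = 5 each; adjusted p = 0.388 by edgeR). The part of Hmgxb3 reads in the Csf1r counts was not tested.

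The C1q chain genes were also at a few counts in WT DP. C1qa had 4.59, 7.24, 1.27, 1.87 and 2.51 CPM in KO DP libraries, against 0.362, 0.205, 0.410, 0.603 and 0.393 CPM in WT DP libraries. C1qb had 5.46, 0.821, 4.32, 2.56 and 2.64 CPM in KO DP libraries, against 0.652, 0.342, 0.410, 0.377 and 0.550 CPM in WT DP libraries. For both genes the groups did not overlap, although for C1qb the gap was narrow because of KO DP 2. The log2 fold change was 3.16 ± 0.59 for C1qa (adjusted p = 0.0144) and 2.76 ± 0.55 for C1qb (adjusted p = 0.0209, both by edgeR, SE). With all 35 libraries in 1 fit neither passed, at 3.14 (adjusted p = 0.0788) and 2.76 (adjusted p = 0.133). C1qc had 3.47, 2.69, 1.02, 2.0 and 2.64 CPM in KO DP libraries, against 0.724, 0, 0.410, 0.302 and 0.393 CPM in WT DP libraries. These groups did not overlap either, but its log2 fold change of 2.69 ± 0.69 did not pass (adjusted p = 0.0816 by edgeR).

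Mpeg1, the pore-forming protein, had 36.4, 2.69, 10.0, 21.4 and 18.7 CPM in KO DP libraries, against 4.63, 4.51, 6.22, 4.60 and 3.46 CPM in WT DP libraries. Of the KO DP libraries, number 2 lay below all WT DP libraries and the other 4 above all of them, and the log2 fold change of 1.95 ± 0.49 did not pass (adjusted p = 0.0743 by edgeR). Without KO DP 2, Mpeg1 (log2 fold change 2.22, adjusted p = 0.000197) and C1qc (2.63, adjusted p = 0.0182) passed, as did Cx3cr1, for 6 members in all. Cd68, the lysosomal glycoprotein, averaged 11.8 ± 4.06 CPM in KO DP, against 11.4 ± 3.67 CPM in WT DP (SD, n = 5 each), a log2 fold change of 0.07 ± 0.29 (adjusted p = 0.934 by edgeR). Cx3cr1, with 0 to 2.92 CPM in KO DP, against 0 to 0.377 CPM in WT DP, and Mertk fell below the filter on low counts and were not tested. Mertk had 4, 0, 4, 8 and 10 counts in KO DP libraries and 0, 0, 1, 0 and 0 in WT DP libraries.

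In all, 3 members were called higher in KO DP, of 6 tested and 8 in the table, and none lower. Across all genes tested, 1.48% were called higher. The C1q genes were below the filter's level in WT DP and so entered the test through the KO DP libraries. Csf1r also needed KO DP libraries to pass the filter, since WT DP 4 had 3 counts, under the minimum of 10. The share of all genes without overlap between groups was not counted in any comparison, so a lack of overlap is given as a description. With no filter, 1% of genes were called higher and Mpeg1 joined as a 4th member. The calls were thin in part: Csf1r was called with each of the 10 libraries left out in turn (highest adjusted p = 0.021), while it was the single member called without KO DP 1, WT DP 1, WT DP 3 or WT DP 5.

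**Figure D2:**
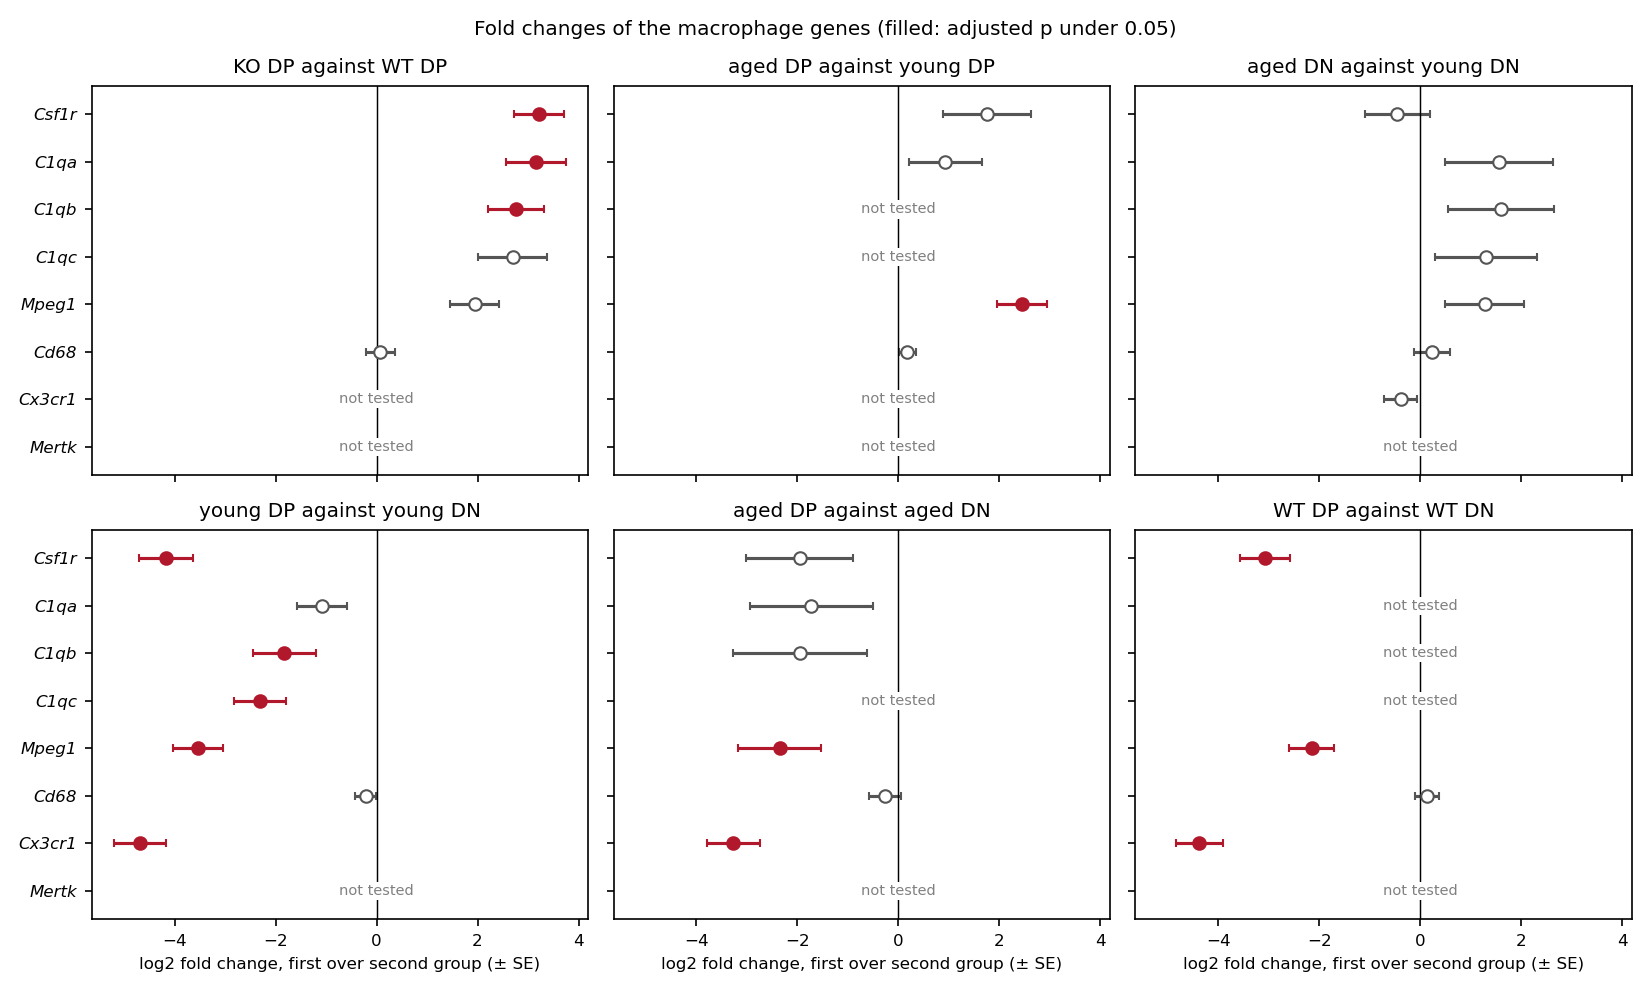
Log2 fold change of each member, first-named over second-named group, with its SE, in 6 comparisons of 5 against 5 libraries. Filled points passed an adjusted p under 0.05, and members under the count filter are marked as not tested; in KO DP against WT DP the points lie right of 0, with Cd68 at 0.07, and in the 3 DP against DN panels most lie left of it.

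Other lineages moved with the members in KO DP libraries. All 10 B cell markers listed were called higher in KO DP, with a summed level of 91.5 to 283 CPM in KO DP, against 24.0 to 47.6 CPM in WT DP. Of 10 dendritic cell markers 4 were called higher (6 tested), of 6 monocyte markers 2 (4 tested), of 8 neutrophil markers 3 (4 tested) and of 6 NK cell markers 3 (3 tested). Scarce markers could enter the test through the KO DP libraries alone, so these counts are a description. Their summed levels in KO DP against WT DP were 284 to 595 against 55.3 to 89.8 CPM for dendritic cells, 12.02 to 42.1 against 7.2 to 10.1 CPM for monocytes, 14.2 to 47.0 against 1.4 to 9.2 CPM for neutrophils and 55.5 to 77.3 against 18.0 to 39.3 CPM for NK cells. The dendritic list holds class II histocompatibility genes that B cells also transcribe. Of 8 markers of thymic epithelium and stroma 3 were tested and none was called, with Foxn1 and Krt5 at 0 in both groups and a summed level of 177 to 213 CPM in KO DP, against 159 to 185 CPM in WT DP. The DP marker sums given above did not overlap between KO DP and WT DP and were lower in each KO DP library, although none of the 5 genes was called. Of 5 DN thymocyte markers (Il2ra, Kit, Il7r, Notch1 and Dtx1) 2 were called higher in KO DP and none lower, with sums of 288 to 629 CPM in KO DP, against 281 to 441 CPM in WT DP. The part of these cell types in the KO DP values of the macrophage genes was not tested.

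The wider macrophage programme was mostly too scarce to test in DP cells. Of 22 other macrophage genes 5 were tested in KO DP against WT DP, and 1 was called. Their median log2 fold change was 0.54, against -0.01 over all genes. The 1 called was Apoe, the lipid carrier, at 68.2 ± 18.7 CPM in KO DP, against 37.8 ± 4.03 CPM in WT DP (SD, n = 5 each; log2 fold change 0.88 ± 0.18, adjusted p = 0.0253 by edgeR). Cd5l, Marco, Msr1, Timd4 and Trem2, scavenger and phosphatidylserine receptors and the macrophage protein AIM, had no count in any WT DP library. Each had counts in KO DP, among them 89 for Cd5l and 66 for Marco over the 5 libraries. Marco had no count in the other DP and DN groups save 17 in aged DP and 3 in young DN.

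Among genes of the pathways around the members, Irf8 was the 1 of 4 tested in the list of CSF1 receptor ligands and myeloid factors to be called in KO DP. Irf8, a transcription factor of monocytes, dendritic cells and B cells, averaged 30.6 ± 15.6 CPM in KO DP, against 9.60 ± 1.67 CPM in WT DP (log2 fold change 1.69 ± 0.31, adjusted p = 0.0144 by edgeR). In the complement list 2 of 4 tested were called, both higher: C3, the central component, at 17.3 ± 22.5 CPM in KO DP, against 0.431 ± 0.137 CPM in WT DP (adjusted p = 0.00673 by edgeR), and Cr2, the complement receptor of B cells, at 11.5 ± 3.77 CPM in KO DP, against 1.76 ± 1.06 CPM in WT DP (adjusted p = 0.00359 by edgeR). Of 14 lysosomal genes tested 2 were called higher, where 1.48% of all genes were. Ctss, the cathepsin of antigen-presenting cells, had a log2 fold change of 2.77 ± 0.39 (adjusted p = 0.0026 by edgeR) and Grn, progranulin, one of 1.36 ± 0.24 (adjusted p = 0.0118 by edgeR). None of the 14 efferocytosis genes tested was called, and the nearest was Itgb3, an integrin chain of the vitronectin receptor, with 10.9 ± 2.55 CPM in KO DP, against 6.68 ± 1.36 CPM in WT DP (adjusted p = 0.164 by edgeR). The list medians of the log2 fold change were 1.30 for receptor ligands and myeloid factors, 2.31 for complement, 0.08 for the lysosome and 0.12 for efferocytosis.

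With age, the member called in DP cells was Mpeg1. It had 12.5, 6.75, 5.81, 4.60 and 32.8 CPM in aged DP libraries, against 0.887, 2.43, 2.70, 2.27 and 3.49 CPM in young DP libraries. The groups did not overlap, and aged DP 5 stood far above the rest. The log2 fold change was 2.45 ± 0.50 (adjusted p = 0.0281 by edgeR), and Mpeg1 was the 1 member called of 4 tested, against 0.62% of all genes called higher. The call was lost when any 1 of the young DP libraries was left out, with an adjusted p of up to 0.093, and without aged DP 1 and aged DP 5 the log2 fold change was 1.28 (adjusted p = 0.0842). Mpeg1 in the heterozygous WT DP libraries of 10 weeks, at 3.46 to 6.22 CPM, overlapped the lower aged DP values.

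Csf1r and the C1q genes were high in 1 aged DP library. Csf1r had 1.94, 0.910, 0.205, 0 and 7.21 CPM in aged DP libraries, against 0.341, 0.235, 0.924, 0.734 and 0.890 CPM in young DP libraries. Its log2 fold change was 1.75 ± 0.86 (adjusted p = 0.452 by edgeR), and -0.78 without aged DP 1 and aged DP 5. C1qa, at 3.94 CPM in aged DP 5 and 0.212 to 1.19 CPM in the other aged DP libraries, against 0.133 to 1.09 CPM in young DP libraries, had a log2 fold change of 0.93 ± 0.71 (adjusted p = 0.686 by edgeR). Cd68 averaged 8.44 ± 1.34 CPM in aged DP and 7.55 ± 1.33 CPM in young DP (adjusted p = 0.758 by edgeR). C1qb, C1qc, Cx3cr1 and Mertk were below the filter. Aged DP 5 also had the highest B cell marker sum of the DP libraries, 549 CPM, against 34.9 to 45.6 CPM in the other aged DP and 20.5 to 26.3 CPM in young DP libraries. All 10 B cell markers had counts in aged DP and in young DP alike. Of 7 tested, 3 were called higher in aged DP, beside 0.62% of all genes. Of the dendritic markers 4 of 7 tested were called higher in aged DP, and of the monocyte markers 1 of 4. Scarce markers could enter the test through the aged DP libraries alone, so these counts are a description. Aged DP 5 had a dendritic marker sum of 906 CPM, against 81.7 to 179 CPM in the other aged DP libraries. The part of these cell types in the Mpeg1 values was not tested.

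In DN cells no member was called between ages: 0 of 7 tested were called, beside 0.267% of all genes, although 3049 genes had an unadjusted p under 0.05. DESeq2 called 819 genes and again no member. The count of all genes called, 37 here, was 10 to 185 with 1 library left out, 738 without aged DN 1 and aged DN 5, 2160 with all 35 libraries in 1 fit and 1 with the replicate block, and no member was among them in any of these fits. The replicate block matches libraries by number, and the numbers are not shown to pair aged DN with young DN libraries. None of the 7 members had an unadjusted p under 0.05 by edgeR. The values were dominated by single libraries. C1qa had 0.640, 0.984, 0.952, 18.2 and 0.254 CPM in aged DN libraries, against 0.931, 1.51, 2.80, 1.39 and 0.518 CPM in young DN libraries. C1qb and C1qc had the same shape, with 19.5 and 16.6 CPM in aged DN 4 and at most 1.27 CPM in the other aged DN libraries. The C1qa log2 fold change was 1.56 ± 1.07 (adjusted p = 0.36 by edgeR), and without aged DN 4 it was -0.97.

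Mpeg1 was highest in a different aged DN library. It had 15.7, 26.7, 21.8, 58.6 and 195 CPM in aged DN libraries, against 8.92, 17.6, 63.7, 29.9 and 16.1 CPM in young DN libraries (log2 fold change 1.27 ± 0.77, adjusted p = 0.318 by edgeR). In aged DN 5 Mpeg1 made up 85.7% of the summed CPM of the members and the 3 C1q genes 0.781%, while in aged DN 4 the shares were 38.1% and 35.4%. Aged DN 5 also had a B cell marker sum of 10555 CPM, against 392 to 583 CPM in the other aged DN libraries, and a DP marker sum of 187.6 CPM. Its dendritic marker sum was 15939 CPM, against 733 to 1155 CPM in the other aged DN libraries. Irf8 was at 725 CPM and Spi1 at 61.03 CPM in it, against at most 69.3 and 12.7 CPM in the others. Adgre1, which encodes the macrophage marker F4/80, had 5.76 CPM in aged DN 5, 12.6 CPM in aged DN 4 and 1.01 to 1.97 CPM in the other 3. Among WT DN libraries, WT DN 2 had a B cell marker sum of 3254 CPM with Mpeg1 at 26.4 CPM. Its Irf8 was at 227 CPM and its Spi1 at 43.1 CPM. WT DN 1 had a B cell marker sum of 218 CPM with Mpeg1 at 47.4 CPM. The part of B cells and dendritic cells in the Mpeg1 level of aged DN 5 was not tested.

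**Figure D3:**
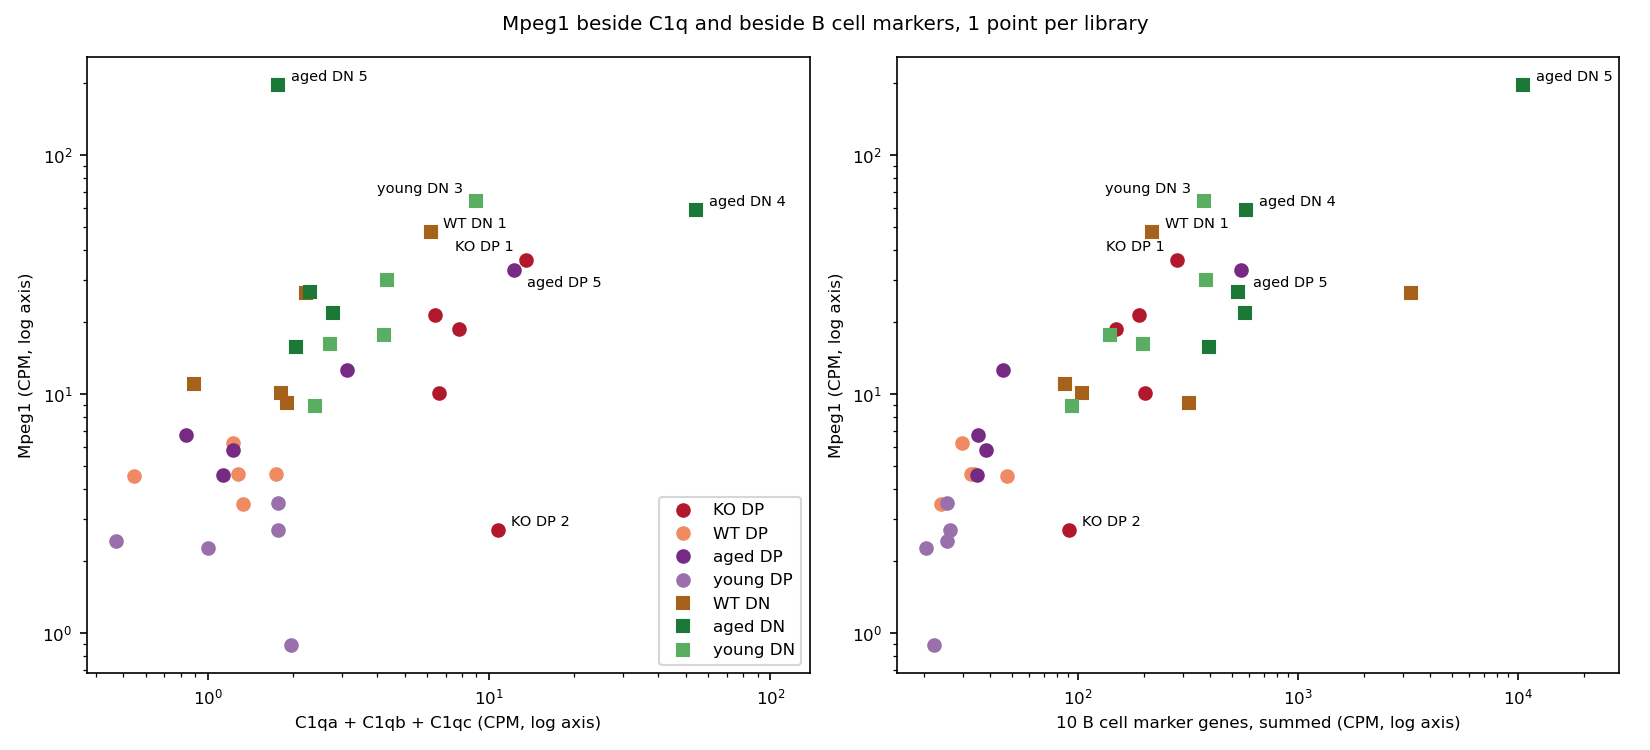
Mpeg1 against the summed C1q genes (left) and against the sum of 10 B cell markers (right), in CPM on log axes, 1 point per library. Aged DN 5 has the highest Mpeg1 (195 CPM) and the highest B cell sum (10555 CPM) with a low C1q sum (1.78 CPM). WT DN 2 has 26.4 CPM of Mpeg1 with a B cell sum of 3254 CPM. Aged DN 4 has the highest C1q sum (54.4 CPM), and KO DP 2 has little Mpeg1 beside its C1q.

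Young DN libraries also had 1 library that stood out. Young DN 3 was highest of its group for 7 of the 8 members, all but C1qc, with 27.3 CPM of Csf1r against 4.79 to 11.7 CPM in the other young DN libraries. Its neutrophil marker sum was 1120 CPM, the highest of the young DN group. For Csf1r, aged DN libraries had 5.05, 2.23, 3.74, 16.2 and 13.4 CPM, a log2 fold change against young DN of -0.46 ± 0.65 (adjusted p = 0.645 by edgeR), and 0.16 without young DN 3. Cx3cr1 averaged 4.52 ± 2.36 CPM in aged DN and 6.03 ± 1.51 CPM in young DN (adjusted p = 0.449 by edgeR), and Cd68 10.1 ± 4.64 CPM in aged DN and 8.79 ± 2.93 CPM in young DN (adjusted p = 0.671 by edgeR). Of the other macrophage genes, Slc40a1, the iron exporter ferroportin, was the 1 of 10 tested to be called. It was lower in aged DN, at 0.504 ± 0.272 CPM, against 4.92 ± 3.05 CPM in young DN (SD, n = 5 each; log2 fold change -3.24 ± 0.49, adjusted p = 0.0317 by edgeR). No gene of the efferocytosis, complement, lysosome or receptor ligand and myeloid factor lists was called between aged DN and young DN.

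Whether the age effect differed between the stages was tested as an interaction, which 0 of 7 members tested passed and which 0.00679% of all genes (1 of 14722) and, by DESeq2, 85 genes and none of the members passed. In that test 2229 genes and none of the members had an unadjusted p under 0.05 by edgeR. The interaction was 2.22 ± 1.22 on the log2 scale for Csf1r (adjusted p = 0.369 by edgeR) and 1.19 ± 1.00 for Mpeg1 (adjusted p = 0.534 by edgeR).

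Between stages, Cx3cr1, Csf1r, Mpeg1, C1qc and C1qb were called lower in young DP than in young DN cells. In young mice Cx3cr1 had 0, 0.392, 0.568, 0.200 and 0 CPM in DP libraries, against 3.99, 6.55, 8.14, 5.79 and 5.70 CPM in DN libraries, a log2 fold change of -4.68 ± 0.51 (adjusted p = 9.7e-07 by edgeR). Csf1r averaged 0.625 ± 0.318 CPM in young DP and 11.4 ± 9.29 CPM in young DN (log2 fold change -4.16 ± 0.54, adjusted p = 5.6e-06 by edgeR). Mpeg1 averaged 2.35 ± 0.945 CPM in young DP and 27.2 ± 21.7 CPM in young DN (log2 fold change -3.54 ± 0.49, adjusted p = 1.3e-05 by edgeR). No young DP library reached the lowest young DN library for Cx3cr1, Csf1r or Mpeg1.

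Of the C1q genes 2 of 3 passed. C1qc fell by 2.30 on the log2 scale (SE 0.51, adjusted p = 0.000956) and C1qb by 1.82 (SE 0.62, adjusted p = 0.0163), both by edgeR, while C1qa had -1.08 ± 0.50 and did not pass (adjusted p = 0.0677). The C1qb call was lost without young DN 3 (adjusted p = 0.0886). Cd68 had -0.22 ± 0.21 (adjusted p = 0.375 by edgeR) and Mertk, with 12 counts over the young DP and 38 over the young DN libraries, was under the filter. In all 5 of 7 members tested were lower in young DP, in a comparison in which 36.5% of all genes were called lower, so a fall here is not particular to them. Of other cell types, all 10 B cell, 8 neutrophil and 5 of the 6 NK cell markers listed were likewise called lower in young DP.

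In aged mice 2 of 6 members tested were called lower in DP, beside 24.6% of all genes. This fit did not use the pairing of same-numbered libraries, and with a replicate block the same 2 members were called. Cx3cr1 averaged 0.460 ± 0.305 CPM in aged DP and 4.52 ± 2.36 CPM in aged DN (log2 fold change -3.27 ± 0.52, adjusted p = 0.000895 by edgeR), and no aged DP library reached the lowest aged DN library. Mpeg1 had a log2 fold change of -2.35 ± 0.83 (adjusted p = 0.0408 by edgeR), with overlapping groups, and was called in 4 of 10 fits with 1 library left out. Csf1r, at -1.96 ± 1.05 (adjusted p = 0.16 by edgeR), and C1qa, at -1.72 ± 1.22 (adjusted p = 0.282 by edgeR), did not pass. Without aged DP 1, aged DP 5, aged DN 1 and aged DN 5, both passed, with log2 fold changes of -4.31 and -4.19 and adjusted p of 0.00181 and 0.0087 by edgeR. Of the libraries left out, aged DN 1 had Maf, of the other macrophage genes, at 1036 CPM. The other aged DN libraries had 33.6 to 83.7 CPM. The efferocytosis sum of aged DN 1 was 5432 CPM, against 1536 to 1704 CPM in the other aged DN libraries. The C1qa value rests on aged DN 4, at 18.2 CPM, against 0.952 and 0.984 CPM in the other DN libraries kept. With all others in and aged DN 4 left out, C1qa was 0.82 (adjusted p = 0.486 by edgeR).

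In the heterozygous controls 3 of 4 members tested were called lower in WT DP than in WT DN, beside 33.7% of all genes. Cx3cr1 averaged 0.209 ± 0.149 CPM in WT DP and 4.39 ± 0.739 CPM in WT DN (log2 fold change -4.37 ± 0.47, adjusted p = 3.3e-06 by edgeR). Csf1r averaged 0.799 ± 0.403 CPM in WT DP and 6.77 ± 4.18 CPM in WT DN (log2 fold change -3.08 ± 0.49, adjusted p = 0.000103 by edgeR), and Mpeg1 4.68 ± 0.988 CPM in WT DP and 20.8 ± 16.5 CPM in WT DN (-2.15 ± 0.44, adjusted p = 0.00072 by edgeR). These calls held in each of the 10 fits with 1 library left out. Cd68 had 0.12 ± 0.24 (adjusted p = 0.659 by edgeR), so that it passed in none of the stage comparisons. WT DN 1 was highest of its group for 7 of the 8 members, all but Cx3cr1.

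The pathway lists were compared by stage as well. Between young DP and young DN, 36.5% of all genes were called lower in DP, and 9697 of 13772 were called in either direction. Of the 22 other macrophage genes, 9 were tested in young DP against young DN, of which 7 were lower in DP and 1 was higher. Maf, a transcription factor, was lower, at 2.42 ± 0.364 CPM in young DP and 33.0 ± 5.07 CPM in young DN (adjusted p = 1.7e-11 by edgeR), as was Cd163, the haemoglobin scavenger receptor, at 0.482 ± 0.148 CPM in young DP and 11.8 ± 1.21 CPM in young DN (adjusted p = 7.3e-11 by edgeR).

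Of the myeloid factors, 6 of 7 tested were lower in young DP and none higher, among them Spi1, which encodes PU.1 (log2 fold change -5.65 ± 0.56, adjusted p = 3.7e-07 by edgeR), and Tyrobp, an adaptor of myeloid and NK receptors (-3.82 ± 0.47, adjusted p = 3.9e-06 by edgeR). In the complement list 6 of 7 were lower and 1, the integrin chain Itgb2, was higher. Of 16 efferocytosis genes 11 were lower and 4 higher. Lrp1, a receptor for calreticulin on dying cells, fell to 6.16 ± 1.58 CPM in young DP, against 118 ± 15.6 CPM in young DN (adjusted p = 8.8e-12 by edgeR). The lysosomal list was mixed, with 6 of 14 higher and 4 lower in young DP. With 36.5% of all genes called lower, these counts are a description and do not set the list apart. Lipa, lysosomal acid lipase, had 379 ± 40.7 CPM in young DP and 59.7 ± 9.60 CPM in young DN (adjusted p = 2.2e-11 by edgeR), and Grn had 7.21 ± 1.38 CPM in young DP and 63.2 ± 6.66 CPM in young DN (adjusted p = 1.7e-11 by edgeR). The list medians of the log2 fold change were -3.23 for other macrophage genes, -3.02 for myeloid factors, -4.50 for complement, -0.96 for efferocytosis and 0.03 for the lysosome, against -0.01 over all genes.

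The control groups of 10 weeks, heterozygous with Cre and wild type, were compared as well. No member was called between WT DP and young DP, where 0.589% of all genes were called. Of 3 members tested, 2 had an unadjusted p under 0.05 by edgeR, as did 2053 of all 13083 genes tested. Mpeg1 was at 4.68 ± 0.988 CPM in WT DP and 2.35 ± 0.945 CPM in young DP (log2 fold change 0.99 ± 0.29, adjusted p = 0.128 by edgeR) and was called by DESeq2 (adjusted p = 0.0275). Cd68 was at 11.4 ± 3.67 CPM in WT DP and 7.55 ± 1.33 CPM in young DP (0.60 ± 0.21, adjusted p = 0.182 by edgeR). Between WT DN and young DN 25.1% of all genes were called and 0 of 7 members, by DESeq2 also 0. Of all 13702 genes tested, 5416 had an unadjusted p under 0.05 by edgeR, and of the 7 members 1 did. That was Cx3cr1, at 4.39 ± 0.739 CPM in WT DN and 6.03 ± 1.51 CPM in young DN (log2 fold change -0.47 ± 0.21, adjusted p = 0.122 by edgeR).

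The C1q chains were next compared with each other, as shares of the C1q counts in the 19 libraries with at least 30 of them. These shares are not scaled to gene length, which is 1040 bases for C1qa, 1088 for C1qb and 1931 for C1qc. By counts, the chains were close to even in several libraries. In aged DN 4 C1qa held 33.5% of 782 counts, C1qb 35.9% and C1qc 30.6%, and in aged DP 5 C1qa held 32.2% of 199 counts, C1qb 35.7% and C1qc 32.2%. Scaled to length, C1qa, C1qb and C1qc had 17.5, 18.0 and 8.61 CPM per kb in aged DN 4. In aged DP 5 they had 3.79, 4.02 and 2.04 CPM per kb. KO DP 5, with 112 counts, had 32.1%, 33.9% and 33.9% of C1qa, C1qb and C1qc, KO DP 4, with 93, had 29.0%, 39.8% and 31.2%, and KO DP 1, with 218, had 33.9%, 40.4% and 25.7%. The other two KO DP libraries were uneven. In KO DP 2 C1qa held 67.4% of 144 counts (exact Clopper-Pearson 95% interval 59.1 to 74.9%) and C1qb 7.64%. In KO DP 3 C1qb held 65.4% of 104 counts (55.4 to 74.4%). In WT DN 5 C1qc held 76.7% of just 30 counts (57.7 to 90.1%). The intervals cover counting error only, since reads without molecular identifiers are not independent molecules. KO DP 2 and KO DP 3 were also the KO DP libraries in which the fewest genes had a count, 12306 and 16042, and the part of that in the uneven shares was not tested.

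**Figure D4:**
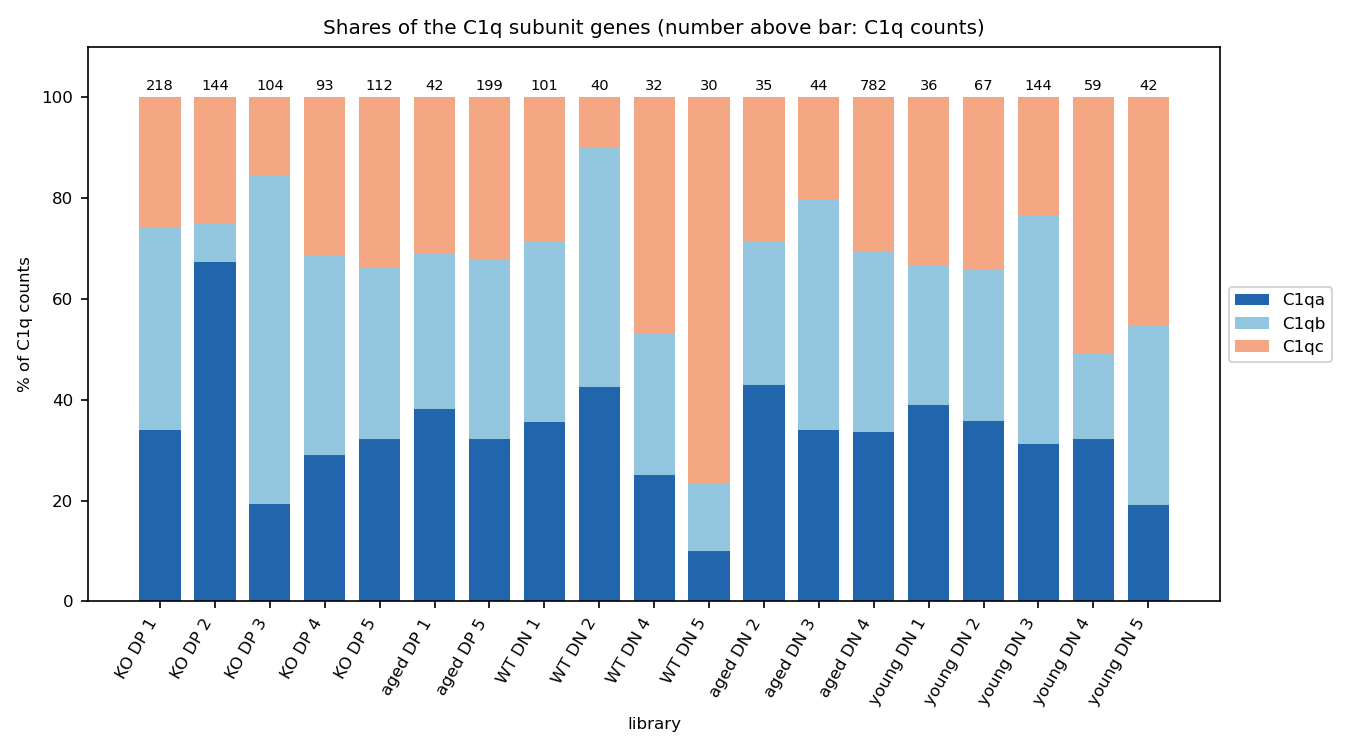
Share of C1q counts held by each chain's gene, in percent, in the 19 libraries with at least 30 C1q counts (number above each bar). By counts not scaled to gene length, the chains are close to even in aged DN 4 and aged DP 5. C1qa dominates in KO DP 2, C1qb in KO DP 3 and C1qc in WT DN 5.

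Across libraries, the genes most like the members were sought by Pearson correlation of log2 CPM, each taken as the difference from its group mean, with the mean of the members, over the 35 libraries and 13161 candidates averaging 1 CPM or more. The 10 closest were Tgfbi (0.83), Itgax (0.75), Sirpa (0.73), Clec4a1 (0.73), Trpm2 (0.70), Plxnb2 (0.70), Adamdec1 (0.69), Ppfia4 (0.68), Dock4 (0.68) and AI607873 (0.66). The values are a description, and the libraries share depth and the few that stood apart.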

How the data were processed

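The authors deposited whole-number read counts by gene for each library, without normalization. Aligner STAR 2.5.1, counters HTSeq 2.0.3 and Subread, trimmer Trim Galore 0.4, bcl2fastq and DESeq2 are named, per the submitters' processing notes, as are GRCm39 and mm10, without each one's step, and per the labels' protocols total RNA went into BGI libraries. Strand of counting is not given in the sources used here. Identifiers and positions are those of the C57BL/6NJ annotation. Members were matched by the table's gene name. Of the other genes, 328 protein-coding rows without a name took the mouse name in their description.

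Groups were compared with edgeR 4.0.16 (R 4.3.3), TMM scaling and quasi-likelihood tests, fitted to just the groups in question, after a filter on low counts (minimum count 10, minimum total 15). Fits covered all genes, and genes with a 2-sided p under 0.05 after Benjamini-Hochberg adjustment were called. The main fits held no replicate block. The scripts were tested on simulated data. Levels are CPM with TMM over all 35 libraries, as mean ± SD. Shares have exact 95% intervals. Alternatives were DESeq2 size factors, no filter, the DESeq2 1.42.0 Wald test, all libraries in 1 fit, a replicate block, and libraries left out.

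Members and lists were chosen with earlier results of these data known. Named genes are all members; from each pathway list the called genes, up to 3 each way by adjusted p, or else the 1 with the smallest p; the 10 genes most like the members; and Mettl3. Genes named outside this rule (Cd5l, Marco, Msr1, Timd4, Trem2, Adgre1 and Hmgxb3) were chosen after their values were seen. A gene that the rule picks is not reported here. Same-numbered aged DP and aged DN libraries deviated together (r of 0.135 to 0.290 for the 5 pairs), so their numbers were taken to pair them.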

Additional observations from a re-analysis of the deposited data

Results flagged for a closer look

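The 8 members and 7 groups formed 56 sets of 5 libraries. By Dixon's criterion, 12 of them held 1 library set apart from the other 4. Its nominal rate of about 1 in 20 assumes independent, normally distributed values. CPM of scarce genes is not so distributed, and several members were flagged in the same libraries. The 12 are therefore a description and cannot be weighed against that rate. Aged DN 4 stood apart for C1qa at 18.2 CPM, C1qb at 19.5 CPM and C1qc at 16.6 CPM, where the other aged DN libraries reached at most 0.984, 1.27 and 0.656 CPM. Aged DP 5 stood apart for Csf1r at 7.21 CPM, C1qa at 3.94 CPM, C1qb at 4.37 CPM, C1qc at 3.94 CPM and Mpeg1 at 32.8 CPM. Aged DN 5 stood apart for Mpeg1 at 195 CPM, where the other aged DN libraries had 15.7 to 58.6 CPM. Young DN 3 stood apart for C1qb at 4.04 CPM, where the other young DN libraries had at most 1.26 CPM. Mertk, the receptor for dying cells, stood apart in WT DN 1 at 0.798 CPM and in WT DP 3 at 0.0683 CPM, the second of which is 1 read.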

How the results depend on the processing

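In KO DP against WT DP, 3 members were called. The count was 3 with DESeq2 size factors, 4 with no filter, 5 by the DESeq2 Wald test, 1 with all 35 libraries in 1 fit, 0 with the replicate block, and 1 to 6 with 1 library left out. Replicate numbers are not shown to pair these samples (r of -0.236 to 0.174, 1 of 5 KO DP libraries correlating best with its own number). Nor are they shown to pair aged with young libraries, which the replicate block joins by number across ages. Blocked values for aged against young libraries and for the interaction are therefore a description. In aged DP against young DP the count of 1 became 0 with all 35 libraries in 1 fit and without aged DP 1 and aged DP 5, and was 0 to 1 with 1 library left out. In aged DP against aged DN, where the numbers were taken to pair the samples, the count of 2 stayed 2 with the replicate block. It was 4 without aged DP 1, aged DP 5, aged DN 1 and aged DN 5, and ran from 1 to 3 with 1 library left out. In WT DP against young DP the DESeq2 Wald test called 1 where edgeR called 0. The replicate block moved no other count of members. The remaining counts stayed within 1.5 times under every alternative run. The causes were not tested.

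Reversed signs all belonged to values that had not passed. Without aged DP 1 and aged DP 5, Csf1r in aged DP against young DP was -0.78 and C1qa -0.91 on the log2 scale. In aged DN against young DN, C1qa was -0.045 and C1qc -0.29 with the replicate block, and -0.56 and -1.15 without aged DN 4 and young DN 3, a setting chosen after seeing the data. For the interaction, C1qa was 0.051 and C1qb 0.90 with the replicate block, and Csf1r -0.15 and C1qc -1.04 without the 4 aged libraries named above. With 1 library left out, log2 values ran as follows. In KO DP against WT DP, Cd68 ran from -0.038 to 0.24. In aged DP against young DP, C1qa ran from -0.25 to 1.20. In aged DN against young DN, Csf1r ran from -0.86 to 0.16, C1qa from -0.97 to 1.95, C1qb from -0.73 to 2.35 and C1qc from -1.29 to 1.58. In aged DP against aged DN, C1qa ran from -2.88 to 0.82 and C1qb from -3.70 to 0.38. Cd68 ran from -0.30 to 0.0075 in young DP against young DN and from -0.011 to 0.26 in WT DP against WT DN. Mpeg1 in WT DN against young DN ran from -0.95 to 0.20. For the interaction, C1qa ran from -1.81 to 1.90, C1qb from -1.88 to 2.21, C1qc from -0.18 to 3.44 and Cd68 from -0.26 to 0.17.

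Depth limits the DP comparisons, where the C1q genes and Mertk have few counts per library, and a difference there can be missed.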
